A study of Mus musculus with 14 samples.

Results

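The genes described here are 36 imprinted growth genes and noncoding RNAs, chosen by name from the 24454 genes counted in the sorted cells of mouse forelimb buds. They lie in 15 imprinted domains on 10 chromosomes, and 6 of them are noncoding RNAs (H19, Meg3, Rian, Mirg, Airn and Kcnq1ot1). All cells came from embryos with the Sox9 IRES-EGFP allele on a mixed Swiss Albino background, in which EGFP marks cells that express Sox9, the transcription factor that starts cartilage formation. At E10.5, 4 populations were sorted: JAG1-positive limb mesenchymal progenitors without EGFP (S9-JAG1+ LMPs, 3 libraries), progenitors without EGFP but with high surface PDGFRα (S9-Pαhi LMPs, 3 libraries), EGFP-positive osteo-chondrogenic progenitors with high PDGFRα (OCPs, labelled S9+Pαhi, 3 libraries) and EGFP-negative cells with SCA-1 (S9-SCA-1+ cells, 2 libraries). The fifth population comprised chondroblasts (labelled S9+COL2+, with a gate given as Sox9+PDGFRαhi, 3 libraries) from E11.5, so that stage and cell state cannot be told apart in any comparison with them. Each library held cells pooled from many forelimb buds, and dead, endothelial, blood and epithelial cells were gated out with antibodies. The 14 libraries held between 20316583 and 29162751 counted reads.

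Imprinted genes are transcribed from the copy inherited from 1 parent, as set by DNA methylation that differs between egg and sperm. For Grb10 and Gnas, the active copy depends on the tissue and on the transcript, respectively. They lie in clusters, and a cluster often pairs a growth-promoting gene active on the paternal copy with a noncoding RNA or a growth-limiting gene active on the maternal copy. Many are highly expressed in embryonic mesoderm, where IGF2 is the main fetal growth factor, and decline after birth. Counts per gene do not separate the parental copies, so the values below are summed levels of both copies. Whether a gene is imprinted in these cells was not measured. In bulk RNA, fewer cells that express a gene and less RNA per cell cannot be told apart.

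Several of these RNAs carry shorter regulatory sequences, which are shown because the level of the host RNA is what the libraries measured. Of the 36 members, 8 hold microRNA hairpins on their own strand in RefSeq (GRCm38.p6), 21 hairpins in all, of which 10 lie in Mirg. The search took in the whole RefSeq span of a gene, introns too, and left out Impact. The libraries held poly(A)+ RNA, and mature microRNAs were not measured. In the following mature sequences, capitals mark the seed (bases 2 to 8). The first pair lies in an exon of H19, the second in Igf2 and the third in Mest, 3 of the most abundant members. The last pair lies in Mirg, and these were the only 2 mature microRNAs of the same-strand hairpins that share a seed.
mmu-miR-675-5p (H19): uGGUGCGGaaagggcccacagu
mmu-miR-675-3p (H19): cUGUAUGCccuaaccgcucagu
mmu-miR-483-5p (Igf2): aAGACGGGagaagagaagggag
mmu-miR-483-3p (Igf2): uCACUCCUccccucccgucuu
mmu-miR-335-5p (Mest): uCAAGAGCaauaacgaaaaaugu
mmu-miR-335-3p (Mest): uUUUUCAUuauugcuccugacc
mmu-miR-453 (Mirg): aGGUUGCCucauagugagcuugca
mmu-miR-496a-5p (Mirg): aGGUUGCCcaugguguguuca

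Peg3 and Usp29 are transcribed in opposite directions from start sites 164 bases apart, and both were called lower in S9-SCA-1+ cells, as described below. Both RefSeq promoter windows, which run from 250 bases before to 50 after a start site, share 263 bases. The window of Peg3 (chr7:6730370-6730669, minus strand, GRCm38.p6) is printed with the palindrome GGGGCCCC in capitals. This is a motif bound by PLAGL1, the zinc finger protein that another member encodes.
Peg3 promoter: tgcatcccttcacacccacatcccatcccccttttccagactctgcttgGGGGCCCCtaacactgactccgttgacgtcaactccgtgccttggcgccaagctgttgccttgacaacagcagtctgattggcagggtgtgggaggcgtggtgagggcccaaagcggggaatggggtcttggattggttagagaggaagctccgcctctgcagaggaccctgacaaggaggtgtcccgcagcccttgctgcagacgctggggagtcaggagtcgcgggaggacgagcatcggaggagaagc
The match spans chr7:6730613-6730620 and lies in both windows. Searched on both strands, these letters occurred in 1.08% of 32851 promoter windows. The 30 members with a window have 46 windows, and 4 of these members had the letters (Peg3, Usp29, Ppp1r9a and Rasgrf1). The percentage counts windows and the 4 counts genes, and Peg3 and Usp29 hold the same match. Core motifs of the proteins ZFP57 and YY1 were also searched. They occurred in 11.6% and 6.05% of all windows and in 10 members and 1 member. A match of letters describes the window and is not evidence of binding.

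The sorting markers were checked in each population. Pdgfra, which encodes PDGFRα, stood at 360 to 530 CPM in S9-Pαhi LMPs, below the 667 to 746 CPM of OCPs and the 773 to 950 CPM of chondroblasts. It stood at 246 to 248 CPM in S9-JAG1+ LMPs and at 44.8 and 24.0 CPM in S9-SCA-1+ cells. Jag1 stood at 228 to 364 CPM in S9-JAG1+ LMPs and at up to 137 CPM elsewhere, and Sox9 at 411 to 625 CPM in OCPs and chondroblasts and at up to 65.5 CPM in the other 3 populations. Ly6a, which encodes SCA-1, was low throughout. Its highest values were 3.10 and 3.36 CPM in the S9-SCA-1+ libraries, and the other libraries had up to 0.406 CPM. The 11 myoblast markers summed to 2344 and 2398 CPM in both S9-SCA-1+ libraries, and the other libraries ranged from 21.7 to 337 CPM, while the 8 limb mesenchyme markers summed to 479 to 609 CPM there and to 1983 to 3763 CPM elsewhere. Red blood cell markers summed to 4075 CPM in replicate 3 of the S9-SCA-1+ cells, to 144 CPM in its replicate 2 and to at most 97.4 CPM elsewhere. Replicate 2 of the OCPs stood apart in nuclear RNAs, with Malat1 at 348 CPM against 103 and 150 CPM in the other OCP libraries and Xist at 1475 CPM against 365 and 327 CPM. Calls of members that were lost without OCP replicate 2 or S9-SCA-1+ replicate 3 are named or counted as lost below. Other values are given with all libraries unless stated.

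The 36 members took up 1.64% to 1.97% of all counts in S9-JAG1+ LMPs, 2.24% and 2.38% in S9-SCA-1+ cells, 2.72% to 2.91% in S9-Pαhi LMPs, 2.66% to 3.34% in OCPs and 3.11% to 3.22% in chondroblasts. The S9-JAG1+ libraries were below all others. Much of this sum was Igf2 and H19. Together they held 0.526% to 0.664% of all counts in S9-JAG1+ LMPs and 1.65% to 1.85% in chondroblasts. In the other populations they held 0.929% to 1.53%. The order by summed share is therefore not shown for the members without Igf2 and H19. Per kilobase of exon, the mean level over all libraries was highest for H19 (2966 CPM per kb), followed by Mest (1244), Igf2 (1073) and Nnat (836). At the other end, Rasgrf1, a Ras exchange factor gene, had at most 3 counts in a library. Slc22a3, which encodes an organic cation transporter, had at most 4 counts, and the potassium channel gene Kcnq1 had 1 to 10 counts except for 22 in OCP replicate 2. These 3 did not pass the filter on low counts, and 33 members were tested.

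A member was called when its adjusted p in edgeR's quasi-likelihood test was at most 0.1 and its absolute log2 fold change at least 1.2. Each population was set against the average of the remaining 4. Of the 33 members, S9-JAG1+ LMPs had 3 called lower and none higher, where 7.70% and 2.88% of the 15125 tested genes were called in these directions (10.6% in either). By adjusted p alone, 19 members were lower and 4 higher, beside 25.7% and 24.2% of all genes (49.9% in either). The median log2 fold change was -0.49 over the members and -0.01 over all genes. In S9-SCA-1+ cells, 8 members were called lower and 2 higher (all genes 6.80% and 4.46%, 11.3% in either), and by adjusted p alone 14 were lower and 5 higher (22.8% and 23.5%, 46.4% in either). In OCPs, 5 were called higher and none lower (3.37% and 1.64%, 5.01% in either), and by adjusted p alone 17 were higher and 4 lower (16.6% and 11.9%, 28.5% in either). The median over the members was 0.34 in OCPs, 0.42 in chondroblasts and -0.34 in S9-SCA-1+ cells, against 0.02, 0.05 and -0.01 over all genes. In S9-Pαhi LMPs it was -0.001, against -0.007. In chondroblasts, 4 were called higher and none lower (11.0% and 1.71%, 12.7% in either), a share near that of all genes. By adjusted p alone, 20 were higher and 6 lower there (35.7% and 29.4%, 65.0% in either). In S9-Pαhi LMPs, 2 were called higher and 1 lower (1.53% and 2.31%, 3.84% in either), and by adjusted p alone 9 were higher and 2 lower (8.03% and 7.60%, 15.6% in either). These comparisons share libraries, so their counts are not independent.

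**Figure D1:**
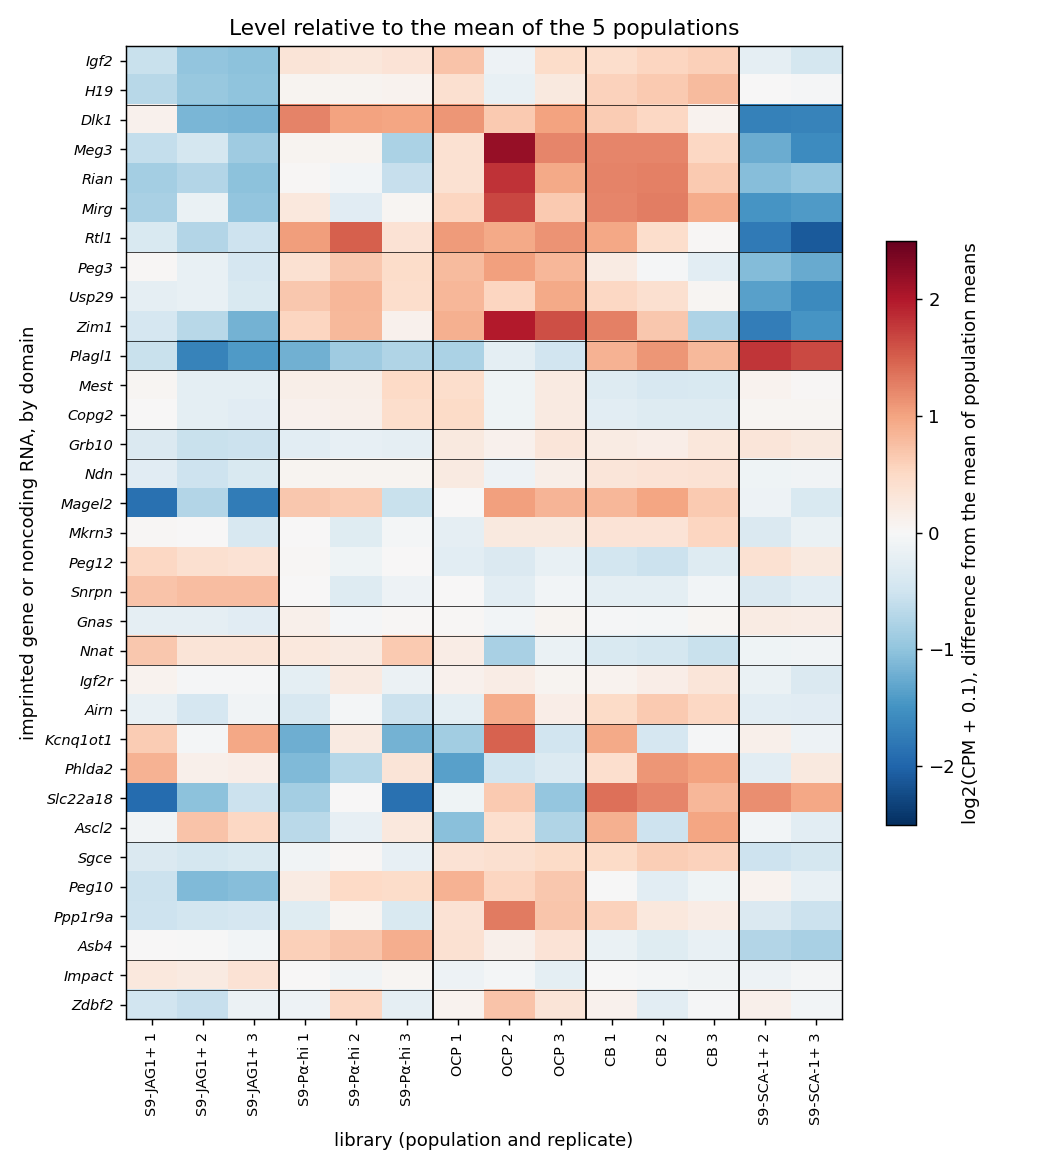
Levels of the 33 tested imprinted genes and noncoding RNAs (rows, grouped by domain) in the 14 libraries (columns), as log2(CPM + 0.1) minus the mean of the 5 population means. The plotted members of the Dlk1-Meg3 and Peg3 domains are low in both S9-SCA-1+ libraries, Plagl1 is high there, and OCP replicate 2 shows high Meg3, Rian, Mirg and Kcnq1ot1.

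Igf2, the fetal growth factor, and H19, the noncoding RNA that shares its enhancers, were both lowest in S9-JAG1+ LMPs. Igf2 (Entrez 16002, chr7:142650768-142666816) stood at 3018, 2249 and 2198 CPM in S9-JAG1+ LMPs, 5587, 5421 and 5629 in S9-Pαhi LMPs, 7347, 4081 and 6164 in OCPs, 6056, 6452 and 6729 in chondroblasts and 3820 and 3267 in S9-SCA-1+ cells. The S9-JAG1+ libraries lay below all others. Igf2 was lower by adjusted p in this population (log2 fold change -1.07 ± 0.15 SE, adjusted p = 5.74e-05), short of the fold change limit, and without S9-JAG1+ replicate 1 it was called at -1.23. H19 (Entrez 14955, chr7:142575530-142578146) stood at 3929, 3307 and 3182 CPM in S9-JAG1+ LMPs, 6636, 6638 and 6723 in S9-Pαhi LMPs, 8354, 5611 and 7501 in OCPs, 9522, 10059 and 10943 in chondroblasts and 6403 and 6196 in S9-SCA-1+ cells. Here too the S9-JAG1+ libraries were below all others, at -1.10 ± 0.11 (adjusted p = 2.59e-06), and all chondroblast libraries were above all others, at 0.84 ± 0.10 (adjusted p = 5.72e-06). Neither passed the fold change limit. Of all tested genes, 7.23% had all S9-JAG1+ libraries below all others. The same share was 10.1% for S9-SCA-1+ cells and 11.6% for chondroblasts. Libraries of a population lay above all others for 13.3% of genes in chondroblasts and 10.8% in S9-SCA-1+ cells. That share was 6.72% in S9-JAG1+ LMPs, 1.24% in OCPs and 1.16% in S9-Pαhi LMPs.

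The balance between both genes differed as well. The log2 ratio of Igf2 to H19, each per kilobase, lay between -1.54 and -1.17 in both LMP populations and OCPs. It lay between -1.69 and -1.63 in chondroblasts and at -1.73 and -1.91 in S9-SCA-1+ cells, without overlap. From OCPs to chondroblasts, H19 was higher by adjusted p (0.51 ± 0.13, adjusted p = 0.00973), while Igf2 differed by 0.13 ± 0.17 (adjusted p = 0.617). The difference between both changes was not tested. Reads of the Mir675 hairpin, which lies within an H19 exon on the same strand, were counted at 46.9 to 77.1 CPM in S9-JAG1+ LMPs and at 101 to 199 CPM in the other populations. A read that starts there can count for both genes, so these values add no second measurement. Igf2r, which encodes the receptor that takes up and degrades IGF2, stayed between 303 and 476 CPM in all libraries. It was slightly lower by adjusted p in S9-SCA-1+ cells (-0.33 ± 0.10, adjusted p = 0.0219) and higher in chondroblasts (0.23 ± 0.08, adjusted p = 0.0320). The log2 ratio of Igf2 to Igf2r per kilobase was 3.51 to 3.86 in S9-JAG1+ LMPs and 4.20 to 5.13 in all other libraries.

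**Figure D2:**
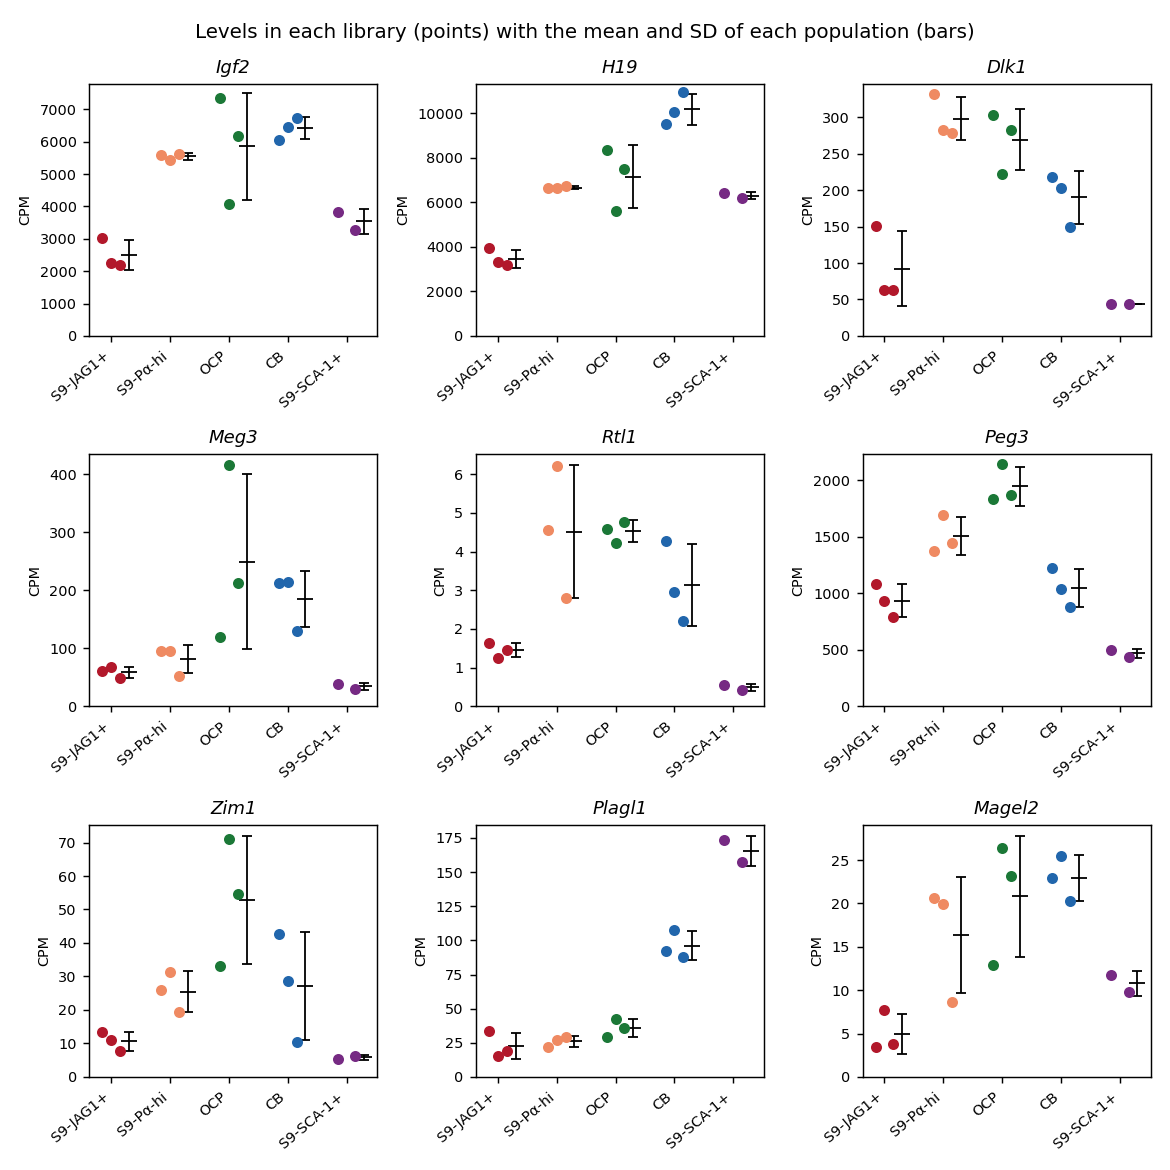
CPM of 9 imprinted genes in each library (points) by population, with the mean and SD of the population (black bars); each vertical axis starts at 0. Igf2 and H19 are lowest in S9-JAG1+ LMPs, Dlk1, Rtl1, Peg3 and Zim1 are lowest in S9-SCA-1+ cells, and Plagl1 is highest there at 173 and 158 CPM.

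Of the Dlk1-Meg3 domain on chromosome 12, all 5 members were called lower in S9-SCA-1+ cells. Dlk1 encodes a transmembrane protein of the Notch ligand family that restrains differentiation, and Rtl1 a retrotransposon-derived protein. Both are active on the paternal copy, and the noncoding RNAs Meg3, Rian and Mirg on the maternal one. Dlk1 (Entrez 13386, chr12:109452485-109463336) stood at 151, 63.2 and 62.7 CPM in S9-JAG1+ LMPs, 332, 283 and 278 in S9-Pαhi LMPs, 303, 222 and 282 in OCPs, 219, 202 and 149 in chondroblasts and 43.7 and 43.8 in S9-SCA-1+ cells. The S9-SCA-1+ libraries were below all others (-2.15 ± 0.30, adjusted p = 6.38e-05). Dlk1 was called higher in S9-Pαhi LMPs (1.31 ± 0.20, adjusted p = 0.000501). Replicate 1 of the S9-JAG1+ LMPs was well above the other two, and without it the fold change of this population went from -0.80 to -1.35 and was called. Rtl1 (Entrez 353326) had 12 to 165 counts per library, with levels of 1.63, 1.26 and 1.47 CPM in S9-JAG1+ LMPs, 4.55, 6.21 and 2.79 in S9-Pαhi LMPs, 4.58, 4.23 and 4.77 in OCPs, 4.27, 2.94 and 2.20 in chondroblasts and 0.560 and 0.427 in S9-SCA-1+ cells. It was called lower in S9-SCA-1+ cells (-2.64 ± 0.36, adjusted p = 4.85e-05) and higher in S9-Pαhi LMPs (1.34 ± 0.22, adjusted p = 0.000910) and OCPs (1.34 ± 0.22, adjusted p = 0.000584). Without S9-Pαhi replicate 2 its fold change in that population was 1.04 and no longer called. Part of Rtl1 lies antisense to several microRNA hairpins, and whether the counting used strand is not given in the sources used here.

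The 3 maternal RNAs of this domain had their highest levels in OCPs and chondroblasts. Meg3 (Entrez 17263, chr12:109540996-109571729) stood at 60.4, 67.4 and 49.1 CPM in S9-JAG1+ LMPs, 95.2, 95.9 and 53.0 in S9-Pαhi LMPs, 120, 416 and 214 in OCPs, 213, 214 and 130 in chondroblasts and 38.7 and 30.8 in S9-SCA-1+ cells. OCP replicate 2 was the highest library, and the OCP and chondroblast ranges overlapped. Meg3 was called lower in S9-SCA-1+ cells (-1.81 ± 0.39, adjusted p = 0.00196) and higher in OCPs (1.74 ± 0.26, adjusted p = 0.000256) and chondroblasts (1.21 ± 0.26, adjusted p = 0.00133). Rian (Entrez 75745), host of many small nucleolar RNAs, ran from 61.7 CPM in S9-SCA-1+ replicate 2 to 453 CPM in OCP replicate 2. It was called higher in OCPs (1.41 ± 0.20, adjusted p = 0.000206) and chondroblasts (1.31 ± 0.20, adjusted p = 9.38e-05) and lower in S9-SCA-1+ cells (-1.32 ± 0.29, adjusted p = 0.00242). Mirg (Entrez 100040724), the microRNA host shown above, had 53 to 380 counts per library and was called in the same directions (1.28 ± 0.21 in OCPs, 1.42 ± 0.21 in chondroblasts and -1.89 ± 0.32 in S9-SCA-1+ cells, adjusted p = 0.000693, 5.82e-05 and 0.000365). Without OCP replicate 2 the OCP fold changes fell to 1.16 for Meg3, 0.95 for Rian and 0.84 for Mirg. All 3 then missed the fold change limit but had adjusted p of 0.00211, 0.000942 and 0.00493. Without the same library, Rian also just missed the limit in S9-SCA-1+ cells (-1.195), and without chondroblast replicate 1 or 2 it just missed it in chondroblasts (1.198 and 1.176). The chondroblast call of Meg3 lay at the limit and was lost in 9 of 19 alternatives.

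The paternal and maternal RNAs of this domain did not keep a fixed ratio. The log2 ratio of Dlk1 to Meg3 per kilobase ran from 2.99 to 3.82 in S9-Pαhi LMPs and from 1.35 to 1.63 in chondroblasts. In OCPs it was 2.77, 0.53 and 1.83, with the lowest value in replicate 2. Rian and Meg3 kept closer together, with log2 ratios between 1.98 and 2.96 in all 14 libraries.

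**Figure D3:**
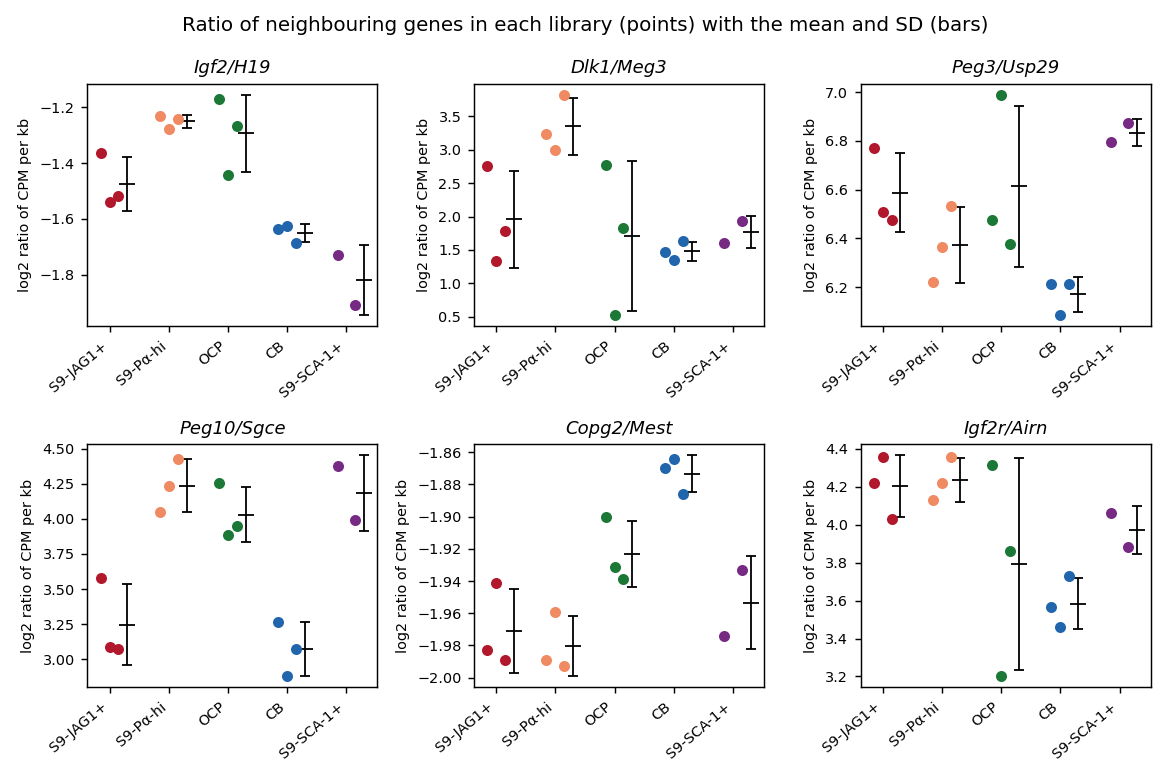
Log2 ratio of the CPM per kilobase of 6 pairs of neighbouring imprinted genes in each library (points), with mean and SD of each population (bars); the vertical axes differ and do not start at 0. Igf2/H19 is lower in chondroblasts and S9-SCA-1+ cells than in the other 3 populations, and Copg2/Mest stays between -1.99 and -1.86 throughout.

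In the Peg3 domain on chromosome 7, all 3 members were called lower in S9-SCA-1+ cells. Peg3 encodes a zinc finger protein with roles in growth and maternal behaviour. Its levels (Entrez 18616, chr7:6703892-6730462) were 1083, 929 and 790 CPM in S9-JAG1+ LMPs, 1379, 1695 and 1446 in S9-Pαhi LMPs, 1833, 2146 and 1866 in OCPs, 1223, 1038 and 882 in chondroblasts and 498 and 441 in S9-SCA-1+ cells. OCPs were above and S9-SCA-1+ cells below all other libraries (1.09 ± 0.10, adjusted p = 3.74e-06, not past the fold change limit, and -1.47 ± 0.14, adjusted p = 2.00e-06). Usp29 (Entrez 57775), a gene for a ubiquitin-specific protease, stood at 11.52, 11.86 and 10.31 CPM in S9-JAG1+ LMPs, 21.5, 23.9 and 18.2 in S9-Pαhi LMPs, 23.9, 19.6 and 26.2 in OCPs, 19.2, 17.8 and 13.8 in chondroblasts and 5.21 and 4.38 in S9-SCA-1+ cells. It too was called lower in S9-SCA-1+ cells (-1.87 ± 0.17, adjusted p = 8.47e-07). The log2 ratio of Peg3 to Usp29, which share the promoter region printed above, stayed between 6.09 and 6.99 per kilobase, while Peg3 alone ranged 4.86-fold across libraries. Usp29 shares 2582 exon bases with Zim3 on the opposite strand, so its counts could hold reads of Zim3. Zim1 (Entrez 22776), a maternal zinc finger gene next to Peg3, stood at 13.4, 10.9 and 7.77 CPM in S9-JAG1+ LMPs, 25.9, 31.4 and 19.3 in S9-Pαhi LMPs, 33.0, 71.0 and 54.7 in OCPs, 42.6, 28.5 and 10.4 in chondroblasts and 5.32 and 6.34 in S9-SCA-1+ cells. Its replicates varied more than those of Peg3. Zim1 was called higher in OCPs (1.87 ± 0.29, adjusted p = 0.000323) and lower in S9-SCA-1+ cells (-2.10 ± 0.45, adjusted p = 0.00192).

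Plagl1, which encodes a zinc finger regulator of other imprinted genes, was highest in S9-SCA-1+ cells. Its levels (Entrez 22634, chr10:13090832-13131694) were 33.7, 15.7 and 18.7 CPM in S9-JAG1+ LMPs, 21.8, 27.0 and 29.4 in S9-Pαhi LMPs, 29.003, 42.13 and 36.02 in OCPs, 91.9, 108 and 88.2 in chondroblasts and 173 and 158 in S9-SCA-1+ cells. Both S9-SCA-1+ libraries were above all others, and all chondroblast libraries above the remaining 9. Plagl1 was called higher in S9-SCA-1+ cells (2.13 ± 0.18, adjusted p = 3.81e-07) and in chondroblasts against OCPs (1.43 ± 0.22, adjusted p = 0.000455), and lower in S9-JAG1+ LMPs (-1.45 ± 0.20, adjusted p = 4.74e-05). The call in S9-Pαhi LMPs (-1.201 ± 0.194, adjusted p = 0.000821) lay at the fold change limit and was lost in 10 of 19 alternatives. The levels in S9-SCA-1+ cells stood beside the myoblast marker sum given above, which was highest in the same population. The part of these cells in the Plagl1, Dlk1-Meg3 and Peg3 results was not tested. The part of the red blood cell RNA in replicate 3 was not tested either. Without this replicate the population rests on 1 library, whose spread is assumed to be that of the other populations. In that fit the log2 fold changes of the members of both domains ran from -2.47 to -1.37 and that of Plagl1 was 2.20.

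From OCPs to chondroblasts, 3 members were called higher and none lower (6.60% and 1.16% of all genes, 7.77% in either). By adjusted p alone 5 were higher and 8 lower (18.3% and 16.5%, 34.8% in either). Beside Plagl1, the called genes were Phlda2 and Slc22a18, 2 low-count neighbours on the maternal copy of the Kcnq1 domain. Phlda2, known for limiting placental growth, had 8, 14 and 21 counts in OCPs and 40, 65 and 53 in chondroblasts (1.68 ± 0.43, adjusted p = 0.0106). Slc22a18, a transporter gene, had 10, 16 and 5 counts in OCPs and 39, 34 and 22 in chondroblasts (1.35 ± 0.54, adjusted p = 0.0786), and this call was lost in 6 of 20 alternatives. Slc22a18 had 32 and 27 counts in S9-SCA-1+ cells, 5, 12 and 1 in S9-Pαhi LMPs and 1, 4 and 7 in S9-JAG1+ LMPs, near the floor of 3 counts. It was called higher in chondroblasts (1.58 ± 0.40, adjusted p = 0.00372). It was also called higher in S9-SCA-1+ cells (1.46 ± 0.46, adjusted p = 0.0221), but not without either of its libraries, and lower in S9-JAG1+ LMPs (-1.82 ± 0.57, adjusted p = 0.0192). Genes lower by adjusted p in chondroblasts were Peg3 (-0.89), Zim1 (-0.96), Peg10 (-0.82), Mest (-0.57), Copg2 (-0.52), Asb4 (-0.50), Ppp1r9a (-0.48) and Usp29 (-0.46). Those higher were H19 (0.51) and Ndn (0.24) beside the 3 called genes.

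Between the LMP populations, 5 members were called lower in S9-JAG1+ than in S9-Pαhi LMPs and none higher (4.42% and 2.58% of all genes, 7.00% in either). They were Magel2 (-1.73 ± 0.36, adjusted p = 0.00302), Dlk1 (-1.69 ± 0.28, adjusted p = 0.000504), Rtl1 (-1.64 ± 0.30, adjusted p = 0.00118), Peg10 (-1.28 ± 0.15, adjusted p = 3.09e-05) and Zim1 (-1.26 ± 0.41, adjusted p = 0.0392). For each of the 5, the libraries of both populations did not overlap. These genes were picked by their difference in the same libraries, so this adds no support. The share of all genes without such an overlap was not counted. The Peg10 call was lost without S9-JAG1+ replicate 2 (-1.18), and the Zim1 call without S9-JAG1+ replicate 3 (-1.09) or S9-Pαhi replicate 2 (-1.08). By adjusted p alone 18 members were lower and 3 higher (15.2% and 12.8% of all genes, 28.1% in either). The higher ones were Snrpn (0.90 ± 0.10, adjusted p = 1.57e-05), Peg12 (0.44) and Impact (0.30).

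**Figure D4:**
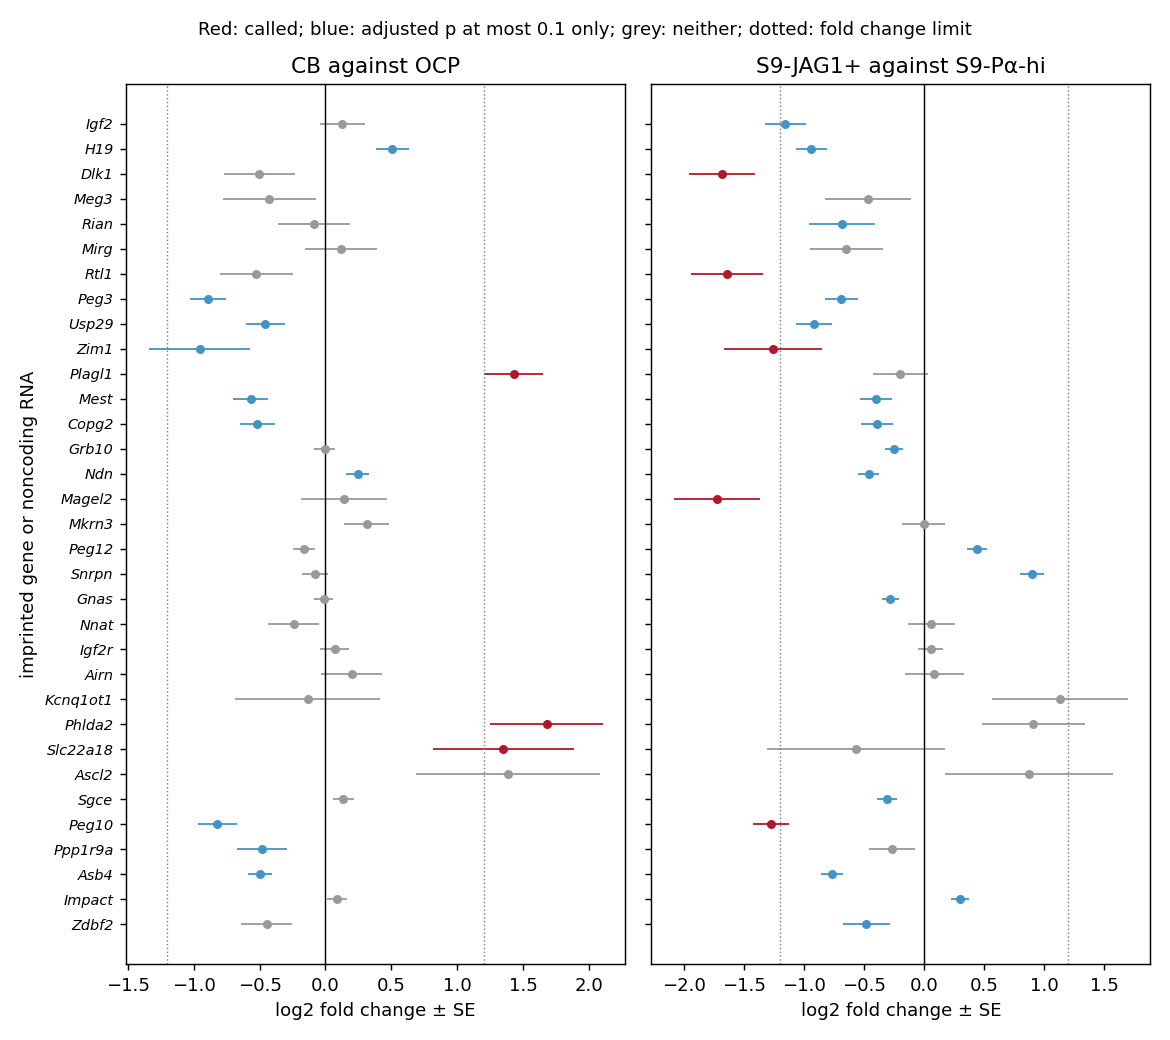
Log2 fold changes (points) with their standard errors (bars) of the 33 tested members in chondroblasts (CB) against OCPs and in S9-JAG1+ against S9-Pαhi LMPs. Red points were called, blue points passed the adjusted p only, and dotted lines mark the fold change limit of 1.2; the 3 red points on the left are Plagl1, Phlda2 and Slc22a18.

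In the Snrpn-Ndn region, whose human counterpart is lost in Prader-Willi syndrome, the genes went in different directions. Magel2 (Entrez 27385), a gene for a regulator of ubiquitin ligases, stood at 3.47, 7.67 and 3.77 CPM in S9-JAG1+ LMPs, 20.6, 19.9 and 8.67 in S9-Pαhi LMPs, 12.9, 26.3 and 23.2 in OCPs, 22.9, 25.5 and 20.3 in chondroblasts and 11.8 and 9.79 in S9-SCA-1+ cells. The S9-JAG1+ libraries were below all others (-1.78 ± 0.31, adjusted p = 0.000394). Ndn, which encodes the growth suppressor necdin, ran in the same direction within a narrow range, from 78.1 to 92.5 CPM in S9-JAG1+ LMPs to 139 to 143 CPM in chondroblasts. Snrpn, which encodes a splicing protein, was highest in S9-JAG1+ LMPs, at 81.1 to 85.0 CPM against 38.4 to 49.9 CPM in the other 11 libraries (0.94 ± 0.07, adjusted p = 2.75e-07). Peg12 was also higher there by adjusted p, with 90.1 to 100.3 CPM (0.52 ± 0.06, adjusted p = 1.86e-05), and S9-SCA-1+ cells had 84.0 and 91.5 CPM. Mkrn3, a gene for a ring finger protein, ran from 3.69 to 7.11 CPM and was higher by adjusted p in chondroblasts (0.51 ± 0.13, adjusted p = 0.0051).

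On chromosome 6, Peg10 and Sgce are transcribed in opposite directions from neighbouring starts, yet their order over the populations differed. Peg10, a retrotransposon-derived gene needed in the placenta, stood at 883, 598 and 613 CPM in S9-JAG1+ LMPs, 1477, 1820 and 1778 in S9-Pαhi LMPs, 2348, 1858 and 2056 in OCPs, 1281, 1072 and 1190 in chondroblasts and 1371 and 1125 in S9-SCA-1+ cells. Sgce, which encodes a sarcoglycan, was 34.6 to 37.4 CPM in OCPs and 37.4 to 40.9 CPM in chondroblasts. The log2 ratio of Peg10 to Sgce per kilobase was 3.89 to 4.25 in OCPs and 2.88 to 3.27 in chondroblasts, without overlap. The difference of this ratio was not tested. Asb4, which encodes a ubiquitin ligase subunit, was highest in S9-Pαhi LMPs at 900, 970 and 1126 CPM (0.92 ± 0.07, adjusted p = 1.05e-06) and lowest in S9-SCA-1+ cells at 362 and 341 CPM (-0.96 ± 0.09, adjusted p = 1.86e-06). Ppp1r9a, which encodes an actin-binding protein, was higher by adjusted p in OCPs (1.03 ± 0.14, adjusted p = 0.000149), where replicate 2 had 213 CPM against 111 and 140 CPM.

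Mest, a gene for a hydrolase-like protein of the growing mesoderm, was lowest in chondroblasts at 2702, 2586 and 2609 CPM, below all other libraries (-0.47 ± 0.11, adjusted p = 0.00230). Copg2, whose 3′ end overlaps that of Mest, followed it closely, with 0.363 to 0.397 Copg2 counts per Mest count in the 14 libraries. Both genes share 912 exon bases on opposite strands. At the mean density of Mest, those bases would carry 82.7% to 90.4% of the counts given to Copg2, so the Copg2 values are uncertain and add no second measurement.

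The other members are given by their range. Gnas, which encodes the stimulatory G protein subunit, ran from 1600 to 2257 CPM. By adjusted p, Gnas was lower in S9-JAG1+ LMPs (-0.30 ± 0.06, adjusted p = 0.00093) and higher in S9-SCA-1+ cells (0.25 ± 0.07, adjusted p = 0.0091). Impact, a translation regulator, ran from 47.9 to 73.1 CPM. By adjusted p, Impact was higher in S9-JAG1+ LMPs (0.36 ± 0.06, adjusted p = 0.00023) and lower in OCPs (-0.18 ± 0.06, adjusted p = 0.0562). Grb10, which encodes an adaptor that damps insulin and IGF signalling, was lowest in S9-JAG1+ LMPs at 1319 to 1494 CPM, below all other libraries (-0.60 ± 0.07, adjusted p = 5.64e-06). Its libraries lay between 2072 and 2386 CPM in OCPs, chondroblasts and S9-SCA-1+ cells. Nnat, a gene for a small membrane protein, was higher by adjusted p in S9-JAG1+ LMPs (0.55 ± 0.15, adjusted p = 0.00876), at 1334 to 1704 CPM, and in S9-Pαhi LMPs (0.47 ± 0.15, adjusted p = 0.0577), at 1237 to 1684 CPM. It was lower in chondroblasts (-0.59 ± 0.16, adjusted p = 0.00611), at 722 to 819 CPM, and OCP replicate 2 was lower still at 607 CPM. Zdbf2 ran from 69.9 to 169 CPM and was lower by adjusted p in S9-JAG1+ LMPs (-0.51 ± 0.16, adjusted p = 0.0205). Ascl2, a transcription factor gene of the placenta, had 1 to 13 counts, and no comparison passed for it with all libraries. From OCPs to chondroblasts its log2 fold change was 1.39 ± 0.70 (adjusted p = 0.160), and it was called at 2.42 without OCP replicate 2, at 1.81 without chondroblast replicate 2 and at 1.504 with the Malat1 term described next. Against the average of the remaining 4, Ascl2 was called in chondroblasts at 1.34 without chondroblast replicate 2.

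Several nuclear noncoding RNAs differed widely between replicates. Kcnq1ot1, the long RNA that silences the Kcnq1 domain in cis, stood at 55.0, 34.3 and 69.2 CPM in S9-JAG1+ LMPs, 15.1, 41.2 and 15.6 in S9-Pαhi LMPs, 19.2, 97.8 and 25.5 in OCPs, 68.3, 26.3 and 34.4 in chondroblasts and 38.3 and 32.3 in S9-SCA-1+ cells. Each population overlapped others, and no comparison passed for it. In OCP replicate 2, Kcnq1ot1 was 4.38 times the mean of the other OCP libraries, Meg3 2.495, Rian 2.16, Mirg 2.11 and Airn 1.94 times. Airn, the silencer RNA of the Igf2r domain, was higher by adjusted p in chondroblasts (0.67 ± 0.18, adjusted p = 0.00580) and passed in no other comparison. In the same library Malat1 was 2.75 and Xist 4.26 times the mean of the others, while Igf2 was 0.604, Nnat 0.567 and H19 0.708 times. Of all tested genes, 5.94% were over 2-fold higher in OCP replicate 2 than the mean of the other OCP libraries, against 0.721% to 2.97% in the other 13 libraries. The log2 ratio of Kcnq1ot1 to Malat1 per kilobase stayed between -6.54 and -5.18, and that of Meg3 to Malat1 ranged from -3.24 to -0.38. An alternative added after the values were seen used a Malat1 term, the log2 level of each library minus the mean of its own population. This term takes up differences within populations and none between them, so it cannot decide on Malat1 differences between populations. With it, the Meg3, Rian and Mirg calls in OCPs were kept. Kcnq1ot1 was then called higher in S9-JAG1+ than in S9-Pαhi LMPs, with a log2 fold change of 1.36 (adjusted p = 0.00345) in place of 1.13 ± 0.56 (adjusted p = 0.180). It was also called there without S9-Pαhi replicate 2, at 1.78 (adjusted p = 0.0709). The part of nuclear RNA content in the other results was not tested.

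**Figure D5:**
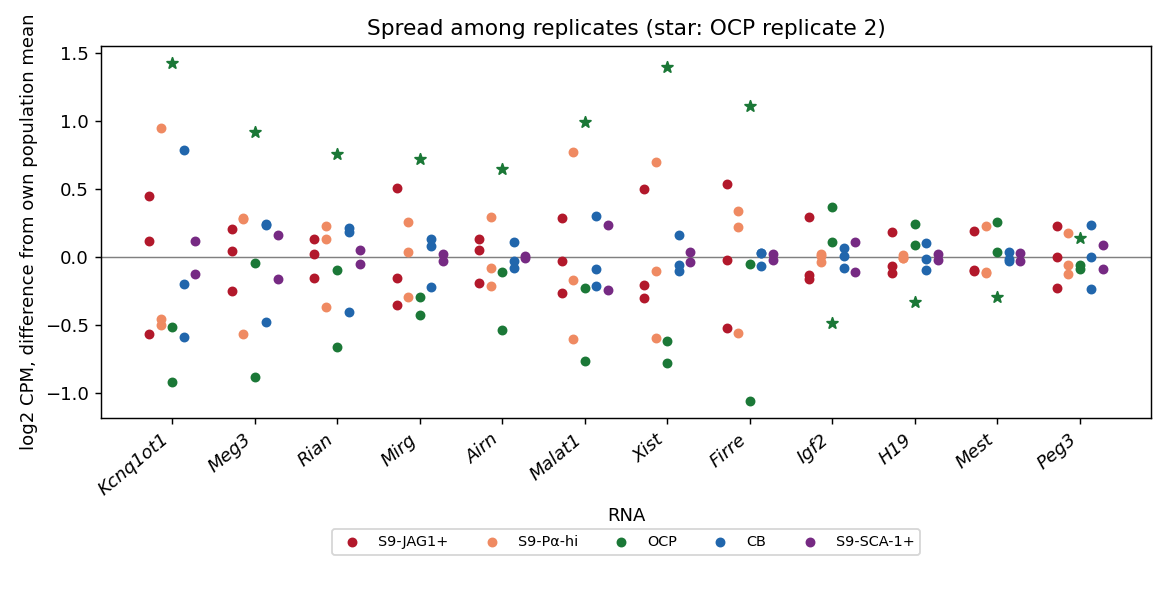
Log2 CPM of 12 RNAs in each library minus the mean log2 CPM of its own population, with OCP replicate 2 as a star. This library is highest for Kcnq1ot1, Meg3, Rian, Mirg, Airn, Malat1, Xist and Firre of its population and lowest for Igf2, H19 and Mest.

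Of 15 tested genes that set or keep imprints, such as the methyltransferase gene Dnmt1, none was called by edgeR in any of the 7 comparisons. By adjusted p alone, up to 10 of them passed in a comparison (4 higher and 6 lower in chondroblasts, where 65.0% of all genes passed). Another 40 tested genes were listed as imprinted, which was not measured in these cells. Of these, 7 were called lower and 2 higher in S9-JAG1+ LMPs (7.70% and 2.88% of all genes). Ampd3 (-2.42), Ano1 (2.09) and Nap1l5 (1.95) had the largest of these changes. In chondroblasts 5 were called higher and 1 lower (11.0% and 1.71% of all genes), led by Dcn (4.15), Sfmbt2 (1.97) and Calcr (1.59). In S9-SCA-1+ cells 2 were called higher and 3 lower (4.46% and 6.80% of all genes), led by Dcn (-3.02), Dio3 (2.64) and Zim3 (-2.25). Dio3, which inactivates thyroid hormone, lies at the end of the Dlk1-Meg3 domain and was called in the opposite direction to the 5 members there. Of 17 tested genes of the IGF axis, 5 were called lower in S9-JAG1+ LMPs, led by Igfbp6 (-3.36), Igf1 (-2.98) and Igfbp3 (-2.90), and none higher, beside the same shares of all genes as above. In chondroblasts 4 were called higher (11.0% of all genes), led by Igfbp5 (3.13), Pappa (2.73) and Igfbp3 (2.20), and none lower. In OCPs 4 were called higher (3.37% of all genes) and none lower, led by Igfbp6 (2.08), Pappa (1.97) and Igf1 (1.80). Of 19 tested other nuclear or long noncoding RNAs, 3 were called higher in chondroblasts (11.0% of all genes) and 1 in OCPs (3.37%), and none lower. In S9-SCA-1+ cells 1 was called higher (4.46%), and in S9-JAG1+ and S9-Pαhi LMPs 1 was called lower (7.70% and 2.31%). Their median was 0.42 in OCPs, 0.47 in chondroblasts, -0.12 in S9-JAG1+ LMPs, -0.55 in S9-Pαhi LMPs and -0.20 in S9-SCA-1+ cells. All values of these lists are log2 fold changes of a population against the average of the remaining 4.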

How the data were processed

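The deposited values are raw counts of reads per gene, without normalization, in 14 libraries of mouse forelimb bud cells. According to their methods, the authors sequenced poly(A)+ RNA as single-end reads, aligned them with STAR to mm10 with 1 position kept per read, and used qCount of QuasR to assign a read to a gene by the exon of its first base (RefSeq mRNAs). A read that starts in an exon of 2 genes can count for both, and use of strand is not given in the sources used here. Symbols and positions came from RefSeq (GRCm38.p6), which matched 24374 of 24454 identifiers, and exon overlaps from GENCODE vM21.

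Counts were tested in R 4.3.3 with edgeR 4.0.16 (filterByExpr by population, TMM, quasi-likelihood test, 5 population means, 14 libraries, Benjamini-Hochberg over 15125 genes). The limits for a call were 0.1 for the adjusted p and 1.2 for the log2 fold change in either direction. The study gives the same numbers but does not state that its P was adjusted. Standard errors were derived from the F statistic (fold change over root F). CPM were computed on TMM-scaled totals, and 3 counts per library (0.101 to 0.149 CPM) were taken as the floor, which covers counting error only. The labels do not say that replicates came from separate litters, so p values measure the spread between these libraries. Chi-square per degree of freedom between replicates was 7.80 to 76.3. The procedure was run on simulated counts with changes larger than the fold change limit, in genes at higher levels than Rtl1, Phlda2 and Slc22a18. This check does not cover changes near the limit or members with low counts. Alternatives were DESeq2 1.42.0 size factors or its Wald test, no filter on low counts, no fold change limit, the replicate number as a block, only the populations compared, each library left out in turn, and a Malat1 term. The members and gene lists were chosen with earlier results of these data known. All members could be named, and of each other list the 3 called genes of largest change in a comparison, beside library values that bear on a member. Tables and plots were made with Python 3.11.15.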

Additional observations from a re-analysis of the deposited data

How the results depend on the processing

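Of 33 calls of a member in a comparison, 21 were kept under all alternatives, 12 were lost under some and none changed sign. Without the fold change limit the number of members called was 23 for S9-JAG1+ LMPs, 11 for S9-Pαhi LMPs, 21 for OCPs, 26 for chondroblasts, 19 for S9-SCA-1+ cells, 13 for chondroblasts against OCPs and 21 for S9-JAG1+ against S9-Pαhi LMPs, in place of 3, 3, 5, 4, 10, 3 and 5. With each library left out in turn these counts ranged from 3 to 7, 2 to 3, 3 to 6, 3 to 5, 9 to 10, 2 to 4 and 4 to 6. The 7 in S9-JAG1+ LMPs came without its replicate 1, when Dlk1 (-1.35), Peg10 (-1.32), Igf2 (-1.23) and Zim1 (-1.204) passed the limit, and the 3 in OCPs came without its replicate 2, when Meg3, Rian and Mirg missed it and Dlk1 passed at 1.26. With DESeq2 size factors or its Wald test Meg3 in chondroblasts and Plagl1 in S9-Pαhi LMPs were lost. No member past the adjusted p changed sign under any alternative, and of those that missed it 1 to 11 per comparison did. Without a filter on low counts, Rasgrf1, with up to 3 counts, was called in chondroblasts. Most same-numbered libraries did not deviate together (26 pairs, correlation -0.181 to 0.308, median -0.00476, 4 over 0.1). The numbers were not taken as pairs. With the replicate block the counts of members called were 3, 3, 5, 4, 10, 3 and 5. Depth limits Rtl1, Mirg, Phlda2, Slc22a18 and Ascl2, whose libraries hold from 1 to 380 counts.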
